A study of Mus musculus with 6 samples.

Results

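The replication-dependent histone genes were described here in microglia of lupus-prone and control mice. They were taken by name, as every gene of the count table whose GENCODE M21 symbol begins with Hist1h, Hist2h, Hist3h or Hist4h, and the rule found 70 of the 55401 identifiers. There were 6 genes of the linker histone H1 and, of the core histones, 20 of H2A, 19 of H2B, 12 of H3 and 13 of H4. The Hist1 genes numbered 56 and lie on chromosome 13, whereas 10 belong to Hist2, 3 to Hist3 and 1 to Hist4. Of the 70 genes, 67 are annotated as protein coding, 2 as processed pseudogenes and 1 as an unprocessed pseudogene.

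The study compared brain microglia of untreated 6-week-old MRL/lpr mice, which carry the Fas lpr mutation on the MRL/MpJ background and develop a lupus-like disease, with those of untreated MRL/mpj controls of the same age. There were 3 libraries per strain, and the labels do not say whether each came from a separate animal, so p-values measure the spread between these samples, which may be technical. Cells were enriched from perfused, digested brain on a Percoll gradient and with CD11b magnetic beads, a step that also retains other myeloid cells. The labels state that ribosomal RNA was removed from total RNA before stranded library construction, whereas the study's methods state that mRNA was purified, and a histone mRNA without a poly(A) tail is kept by the first procedure and largely lost in a poly(A) selection. In bulk RNA, fewer cells of a type and less RNA per cell cannot be told apart.

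Replication-dependent histone genes supply the protein that packages newly copied DNA, and their mRNAs accumulate in S phase and are destroyed when DNA synthesis stops. They usually lack introns and end not in a poly(A) tail but in a conserved stem-loop, which is bound by SLBP (stem-loop binding protein) and lies just before the site where the U7 small nuclear RNP directs cleavage. Some of these genes also give longer, polyadenylated transcripts in cells that have left the cycle, and microglia of the healthy adult brain divide slowly.

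The stem-loop is the element that sets these mRNAs apart, and it was looked for in the GENCODE M21 transcripts (GRCm38). A stem of 6 base pairs with a loop of 4 bases, in the form known as the histone 3′ stem-loop, was found in 46 of the 70 genes. It was not found in the annotated transcripts of the other 24. Some of these are short, such as Hist1h2bl with 381 bases and Hist1h4k with 312. Where the annotation stops at the coding sequence, the search could not find the element, so these genes are not shown to lack it. The most frequent sequence, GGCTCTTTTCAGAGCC, was in 26 genes, namely 3 of H1, 10 of H2A, 8 of H2B and 5 of H3. The second, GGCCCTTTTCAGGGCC, was in 7 genes, all of H4. The 7 sequences below show the element in genes whose levels are described further on, written 5′ to 3′ with the stem-loop in capitals and 5 bases on each side.

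Hist1h1c: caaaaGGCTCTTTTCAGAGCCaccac

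Hist1h1d: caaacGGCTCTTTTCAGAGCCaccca

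Hist1h2ad: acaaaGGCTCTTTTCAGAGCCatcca

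Hist1h2bg: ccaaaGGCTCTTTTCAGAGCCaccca

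Hist1h2bk: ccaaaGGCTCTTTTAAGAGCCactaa

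Hist1h3d: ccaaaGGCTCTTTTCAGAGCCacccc

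Hist1h4d: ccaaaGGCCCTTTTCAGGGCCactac

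The annotated transcript did not always end soon after this element. In Hist1h2bk it ran on for 30 bases and in Hist1h2ad for 42. In Hist1h2bg it ran on for 155 bases, in Hist1h3d for 752, in Hist1h4d for 770, in Hist1h1c for 840 and in Hist1h1d for 4884. The mean FPKM of the genes, a level per length and depth, had a median of 1.23 over the 23 genes with more than 100 annotated bases after the stem-loop. The median was 0.983 over the 23 with at most 100 and 0.584 over the 24 without a match. These groups depend on how far each transcript is annotated.

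Many H2A and H2B genes start back to back on opposite strands and share the stretch between them. The start regions below were read from the RefSeq promoter table (GRCm38.p6) for pairs in which at least 1 gene differed between the strains, and for Hist1h3d, which had the largest fold increase. Capitals mark the octamer ATTTGCAT, the CCAAT box and the TATA box TATAAA in either orientation. All are written on the plus strand. The Hist1h2ae and Hist1h2bg stretch is chr13:23571221-23571395, that of Hist1h2bf and Hist1h2ad is chr13:23574197-23574380, that of Hist1h2ac and Hist1h2bc is chr13:23683960-23684198 (239 of the 250 bases between these genes), and the Hist1h3d promoter is chr13:23575513-23575762.

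Hist1h2ae and Hist1h2bg: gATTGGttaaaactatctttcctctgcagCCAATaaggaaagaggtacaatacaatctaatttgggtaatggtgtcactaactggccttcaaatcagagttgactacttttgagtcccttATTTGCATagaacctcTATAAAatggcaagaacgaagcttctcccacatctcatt

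Hist1h2bf and Hist1h2ad: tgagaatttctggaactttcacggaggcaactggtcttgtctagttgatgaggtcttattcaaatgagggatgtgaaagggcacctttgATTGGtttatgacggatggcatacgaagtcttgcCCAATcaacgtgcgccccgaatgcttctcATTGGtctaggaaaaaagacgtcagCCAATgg

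Hist1h2ac and Hist1h2bc: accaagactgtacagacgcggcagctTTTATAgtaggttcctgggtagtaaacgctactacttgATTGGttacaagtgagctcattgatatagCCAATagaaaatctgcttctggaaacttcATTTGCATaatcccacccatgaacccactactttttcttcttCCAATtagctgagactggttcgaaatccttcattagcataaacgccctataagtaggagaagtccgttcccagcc

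Hist1h3d: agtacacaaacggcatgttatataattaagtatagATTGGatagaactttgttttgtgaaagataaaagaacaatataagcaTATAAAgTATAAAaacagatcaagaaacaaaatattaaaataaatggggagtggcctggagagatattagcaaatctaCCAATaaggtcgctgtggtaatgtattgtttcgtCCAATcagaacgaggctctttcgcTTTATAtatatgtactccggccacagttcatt

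The RefSeq table held a promoter for 62 of the 70 genes. Within the 250 bases before the start, the octamer, the binding sequence of POU-domain factors, was found in 38.9% of the 18 H2A promoters and 37.5% of the 16 H2B promoters, in none of the 6 H1, 10 H3 and 12 H4 promoters, and in 1.60% of all 32851 promoters. CCAAT was in 82.3% of the members' promoters, with H4 lowest at 25.0%, against 33.8% of all promoters, and TATAAA was in 46.8% against 12.4%. These matches describe the letters of the window and not a bound site.

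The 6 libraries held between 45481609 and 49846634 counts. The histone genes took 0.0546% to 0.0619% of them in MRL/lpr and 0.0416% to 0.0427% in MRL/mpj. MRL/lpr replicate 3 stood apart in 2 ways: the ribosomal RNA gene CT010467.1 took 6.38% of its counts against 0.169% to 0.457% elsewhere, and Rn7sk, a small nuclear RNA without a poly(A) tail, had 8434 counts against 734 to 1053. MRL/lpr replicate 2 stood apart in the microglial receptor gene Cx3cr1, which had 132706 counts there, 10645 in MRL/lpr replicate 1, 10334 in MRL/lpr replicate 3 and 27912 to 29349 in the controls, and without that library 9 histone genes were called higher and 1 lower. Xist, the RNA of the inactive X chromosome in female cells, had 8886 to 11319 counts in MRL/lpr and 27 to 38 in MRL/mpj, while 4 Y-linked genes (Ddx3y, Kdm5d, Eif2s3y and Uty) together had 8408 to 15046 counts in every library. The methods name female mice and the GEO labels give no sex, so a difference in sex makeup and the difference in strain cannot be told apart. Genes of near-identical sequence share reads: over windows of 100 bases, a histone gene had a median of 35.7% of its windows in common with transcripts of other genes, and in 29 genes the share exceeded 50%. How the counting assigned such reads, and whether it used strand, is not given in the sources used here.

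Levels spanned a wide range. The mean FPKM over all 6 libraries was above 10 in 5 genes, from 1 to 10 in 30 and below 1 in 35, and Hist1h2aa had 0 counts in every library. Hist1h1c, a linker histone gene, stood first with 169 FPKM, followed by 4 core histone genes, Hist1h2bc with 50.4, Hist1h2bg with 24.9, Hist1h2bk with 12.5 and Hist1h2al with 10.7. Hist1h2bq had 6.66 FPKM, Hist1h4i 5.48, Hist1h1e 5.02, Hist1h3d 4.70 and Hist1h2bj 4.58. Hist1h1c alone made up 53.2% to 63.4% of the summed CPM (TMM-scaled counts relative to depth) of the 70 genes.

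The comparison asks which transcripts differ between microglia of the lupus-prone and the control strain. A filter on low counts kept 53 of the 70 histone genes for edgeR's quasi-likelihood test. Of these, 12 (22.6%) were higher in MRL/lpr and 1 (1.89%) was lower at an adjusted p under 0.05, against 11.1% higher and 9.06% lower among all 19554 genes tested. With a log2 fold change of at least 1 added, 9 were higher and 1 lower, against 4.67% and 3.66% of all genes. The other 40 tested genes were not called, and 9 of them had an unadjusted p under 0.05 in the direction of MRL/lpr and 1 in the other direction. In 24 of the tested genes all MRL/lpr libraries lay above all MRL/mpj libraries on the scaled CPM, in 2 all lay below, and in 27 the groups overlapped. Among all genes tested the groups lay apart in this way in 19.6% upward and 19.4% downward. Over the 53 histone genes tested, log2 fold changes had a median of 0.57, beside -0.01 for all genes. All 13 calls fell on Hist1 genes, of which 43 were tested, while none of the 6 tested Hist2, 3 Hist3 and 1 Hist4 genes was called. Among the 41 genes with at most 50% of their windows shared, 10 were higher, 1 was lower, 23 were not called and 7 were not tested.

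**Figure D1:**
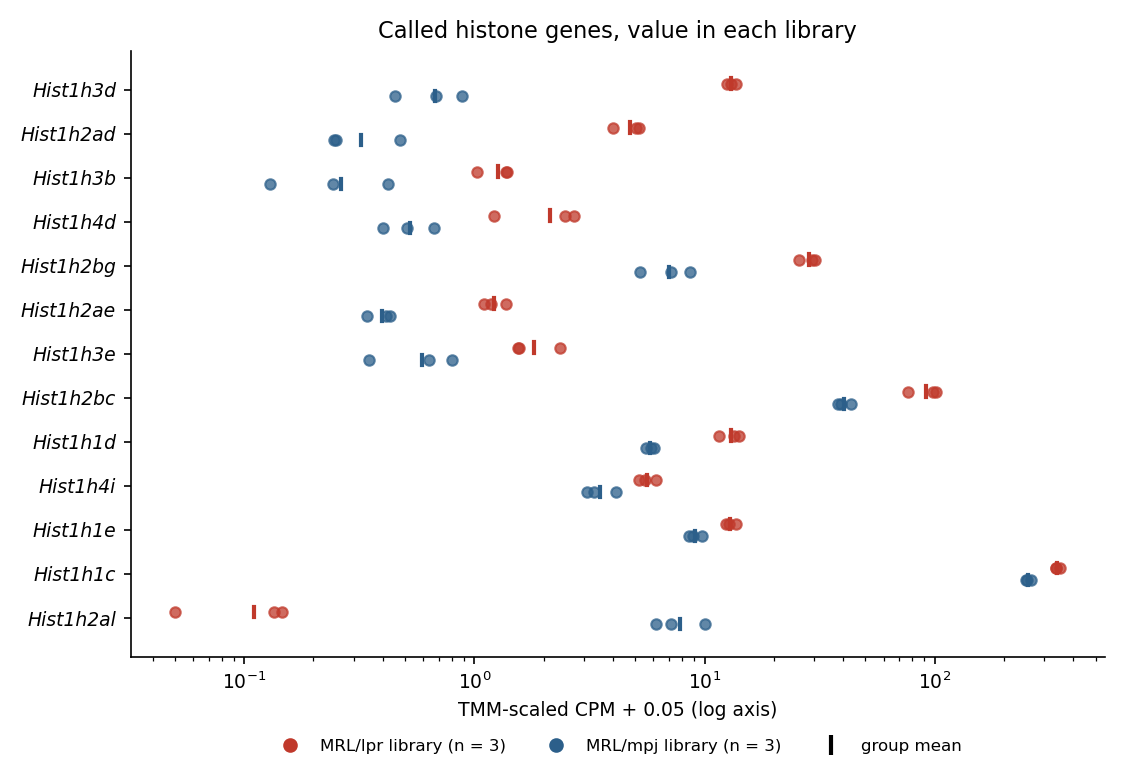
Level of the 13 called histone genes in each library, as TMM-scaled CPM plus 0.05 on a log axis, with points for libraries and vertical bars for group means (n = 3 per strain). In 12 genes every MRL/lpr point lies to the right of every MRL/mpj point, while Hist1h2al lies far to the left in MRL/lpr.

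Linker histones, which bind the DNA between nucleosomes, are encoded here by the somatic genes Hist1h1a to Hist1h1e and the testis gene Hist1h1t. Hist1h1c had 15854, 16547 and 14021 counts in MRL/lpr and 13390, 12567 and 12933 in MRL/mpj. The groups did not overlap, and the difference was small (log2 fold change 0.43 ± 0.06 SE, adjusted p = 0.000714 by edgeR). Hist1h1d had 662, 541 and 560 counts against 283, 299 and 301, so that every MRL/lpr library exceeded every control library (log2 fold change 1.17 ± 0.15, edgeR adjusted p = 0.000438). Hist1h1e had 577, 600 and 570 counts against 497, 442 and 444 and was 1.43-fold higher (edgeR adjusted p = 0.0204), and this call was lost without MRL/lpr replicate 2 or without MRL/mpj replicate 2 or 3.

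Hist1h1a and Hist1h1b were the lowest of the somatic linker genes in counts. Hist1h1a had 44, 63 and 67 counts in MRL/lpr and 30, 36 and 27 in MRL/mpj (log2 fold change 1.09 ± 0.41, edgeR adjusted p = 0.102). Hist1h1b had 35, 53 and 29 counts against 0, 16 and 4 (log2 fold change 2.67 ± 1.02, edgeR adjusted p = 0.104). In both genes the groups did not overlap, but neither passed the test. Hist1h1t had 4, 0 and 12 counts against 4, 2 and 8 and was not tested. Summed over the 6 H1 genes, the level was 370 ± 7.52 CPM (SD, n = 3) in MRL/lpr and 269 ± 6.57 in MRL/mpj, a log2 ratio of 0.46, which became 0.85 without Hist1h1c.

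H2A pairs with H2B in the nucleosome, and its genes moved far in both directions. Hist1h2ad had 185, 234 and 215 counts in MRL/lpr and 10, 10 and 22 in MRL/mpj. The groups lay far apart (log2 fold change 4.09 ± 0.37, edgeR adjusted p = 6.64e-05), in a gene with 63.6% of its windows shared with other H2A genes. Hist1h2ae had 53, 62 and 44 counts against 15, 19 and 19 (log2 fold change 1.75 ± 0.45, edgeR adjusted p = 0.0233). The groups lay apart, but the call did not hold without MRL/lpr replicate 1 or 2 or without any of the MRL/mpj libraries.

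Hist1h2al, annotated as a processed pseudogene at chr13:51202727-51203065 and outside the main gene cluster, went the other way. It had 4, 0 and 4 counts in MRL/lpr against 516, 355 and 318 in MRL/mpj (log2 fold change -6.97 ± 0.55, edgeR adjusted p = 2.46e-05). Hist2h2aa1 had 0, 0 and 1 counts against 0, 0 and 329, and Hist2h2aa2 had 0, 0 and 0 against 69, 0 and 0, so each was seen in a single control library. These near-identical genes share all of their windows with other transcripts, and Hist1h2al shares 19.2% of its windows, chiefly with these same genes. Added together, the 3 genes had 4, 0 and 5 counts in MRL/lpr and 585, 355 and 647 in MRL/mpj.

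Among the remaining H2A genes, Hist3h2a was the most abundant with 640, 439 and 385 counts against 303, 391 and 465, with groups just apart on the scaled CPM, and it was not called (log2 fold change 0.51, edgeR adjusted p = 0.139). Hist1h2ac had 269, 275 and 157 counts in MRL/lpr and 325, 309 and 318 in MRL/mpj, below the controls in every library but not called (log2 fold change -0.28, edgeR adjusted p = 0.414). Of the 20 H2A genes 9 were not tested, among them Hist1h2aa, and the other tested genes were not called. The H2A sum was 26.1 ± 2.44 CPM in MRL/lpr and 27.8 ± 2.91 in MRL/mpj, with overlapping groups and a log2 ratio of -0.09. Without Hist1h2al, a choice made after the values were seen, the ratio was 0.38. Hist2h2aa1, seen in a single control library, averaged 0.00798 CPM in MRL/lpr and 2.11 in MRL/mpj. The small difference in the H2A sum was thus sensitive to single genes and has no firm direction.

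H2B carried most of the core histone signal. Hist1h2bc had 4769, 4619 and 3214 counts in MRL/lpr and 2224, 1965 and 1982 in MRL/mpj. It was 2.29-fold higher, with every MRL/lpr library above the controls (log2 fold change 1.20 ± 0.11, edgeR adjusted p = 8.78e-05). Hist1h2bg had 1418, 1378 and 1074 counts against 364, 432 and 271 and was 4.07-fold higher (log2 fold change 2.02 ± 0.18, edgeR adjusted p = 5.48e-05). No annotated stem-loop was found for Hist1h2bc, whose transcript in GENCODE M21 is spliced over a span of chr13:23684199-23692908, whereas Hist1h2bg holds the sequence shown above.

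Several abundant H2B genes varied more between libraries of a strain than between strains. Hist1h2bk had 132, 388 and 297 counts in MRL/lpr and 576, 355 and 180 in MRL/mpj, with overlapping groups (log2 fold change -0.26 ± 0.53, edgeR adjusted p = 0.799). Hist1h2bj had 91, 104 and 128 against 155, 118 and 93, also overlapping (log2 fold change 0.01 ± 0.30). The sign of the difference in Hist1h2bj turned with the scaling, to -0.12 with library totals alone and to -0.000357 in DESeq2.

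Hist1h2be had 553, 424 and 488 counts in MRL/lpr against 85, 156 and 633, so that a single control library exceeded all MRL/lpr libraries (log2 fold change 0.94, edgeR adjusted p = 0.483). This gene overlaps Hist1h1e in the annotation. Hist1h2bq had 1080, 857 and 985 counts against 309, 299 and 788 and missed the threshold (log2 fold change 1.25 ± 0.39, edgeR adjusted p = 0.0781), with 94.8% of its windows shared. Here too MRL/mpj replicate 3 was the highest control, and without that library Hist1h2be and Hist1h2bq were called higher and Hist1h2bl, with 54, 28 and 25 counts against 114, 150 and 34, was called lower. The testis gene Hist1h2ba had 0 counts in all MRL/lpr libraries and 12, 11 and 5 in MRL/mpj, too few to be tested. The H2B sum was 184 ± 17.5 CPM in MRL/lpr and 89.1 ± 2.74 in MRL/mpj, a log2 ratio of 1.05.

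H3 and H4 form the tetramer at the centre of the nucleosome. Hist1h3d had 640, 613 and 524 counts in MRL/lpr and 43, 20 and 33 in MRL/mpj. The 20.8-fold difference was the largest increase among the histone genes, with groups far apart (log2 fold change 4.38 ± 0.26, edgeR adjusted p = 5.06e-06). Hist1h3b had 46, 62 and 56 counts against 19, 4 and 10 (log2 fold change 2.49 ± 0.62, edgeR adjusted p = 0.0196), and Hist1h3e had 70, 71 and 96 against 30, 15 and 39 (log2 fold change 1.69 ± 0.44, edgeR adjusted p = 0.0251).

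Neither of these last genes overlapped between strains, but the Hist1h3b call was lost without MRL/lpr replicate 2 or MRL/mpj replicate 3, and that of Hist1h3e without MRL/lpr replicate 3 or MRL/mpj replicate 1 or 2. The H3 sum was 23.6 ± 1.75 CPM against 8.21 ± 1.37, a log2 ratio of 1.52, and without Hist1h3d it was 0.47. In FPKM the 12 H3 genes together reached 18.5 ± 1.36 in MRL/lpr and 7.61 ± 1.18 in MRL/mpj. The genes H3f3a and H3f3b, which encode the replacement histone H3.3 used outside S phase, together reached 567 ± 85.9 and 373 ± 12.1 FPKM. In every library their FPKM exceeded that of the replication-dependent H3 genes. These values are RNA and not protein. A poly(A) selection would largely lose histone mRNAs without a tail, and several H3 genes share most of their windows. Whether either lowered the values of the replication-dependent genes was not tested.

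Among the H4 genes, which all encode nearly the same protein, Hist1h4d had 114, 55 and 111 counts in MRL/lpr and 18, 31 and 24 in MRL/mpj. The groups lay apart and none of its windows was shared with another gene (log2 fold change 2.12 ± 0.44, edgeR adjusted p = 0.00818). Hist1h4i, the H4 gene with the most FPKM, had 287, 241 and 229 counts against 157, 204 and 169 (log2 fold change 0.69 ± 0.20, edgeR adjusted p = 0.0427). The groups did not overlap, yet this call was lost without any of the MRL/lpr libraries or without MRL/mpj replicate 1 or 3. Hist1h4m, with 44, 47 and 71 counts against 15, 16 and 32, and Hist2h4, with 49, 37 and 94 against 24, 28 and 23, lay apart as well but missed the threshold (edgeR adjusted p = 0.0628 and 0.0729). The H4 sum was 16.4 ± 2.06 CPM in MRL/lpr and 9.66 ± 0.963 in MRL/mpj, a log2 ratio of 0.76.

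**Figure D2:**
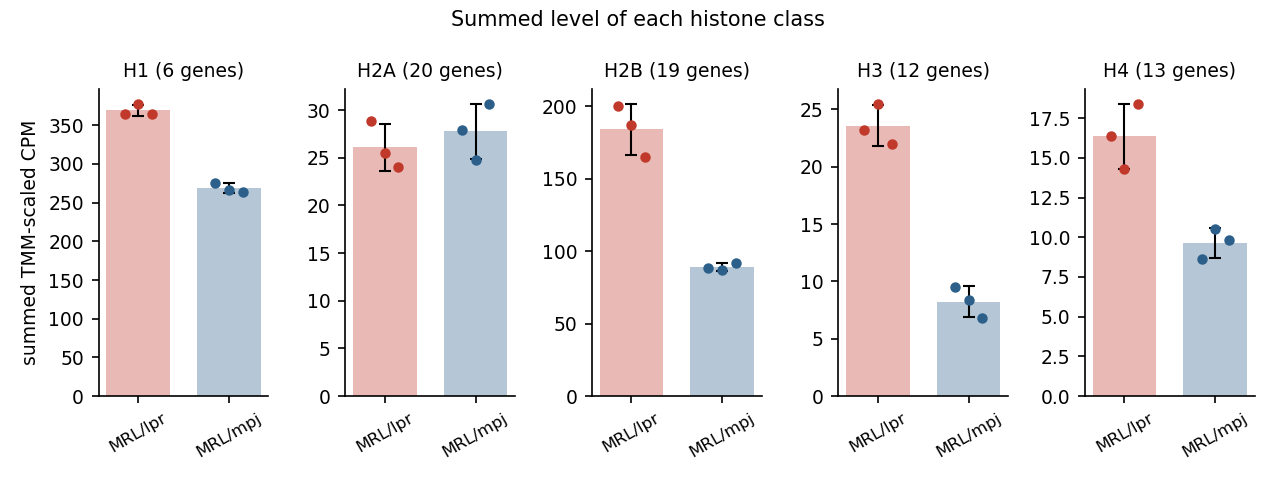
Summed TMM-scaled CPM of the genes of each histone class, with bars from 0 for group means, error bars for the SD and points for libraries (n = 3 per strain), each panel with its own scale. The strains lie apart in H1, H2B, H3 and H4 and overlap in H2A, at 24.0 to 28.8 CPM in MRL/lpr and 24.8 to 30.6 in MRL/mpj.

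Position along the chromosome was examined next, since the Hist1 genes are neighbours. Of 8 consecutive histone genes from Hist1h1d to Hist1h4d (chr13:23553262-23582735, 29474 bases), 7 were higher in MRL/lpr and Hist1h2bf was not called. Higher genes made up 11.1% of all genes tested and 12 of the 43 Hist1 genes tested. The calls of Hist1h3e and Hist1h2ae were lost when some of the libraries were left out. This stretch was picked after the values had been seen and carries no test. It holds Hist1h1d, Hist1h3e, Hist1h2ae, Hist1h2bg, Hist1h2bf, Hist1h2ad, Hist1h3d and Hist1h4d, that is, genes of all 5 classes. The 5 other genes called higher, Hist1h4i, Hist1h1e, Hist1h2bc, Hist1h1c and Hist1h3b, lie elsewhere in the cluster.

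**Figure D3:**
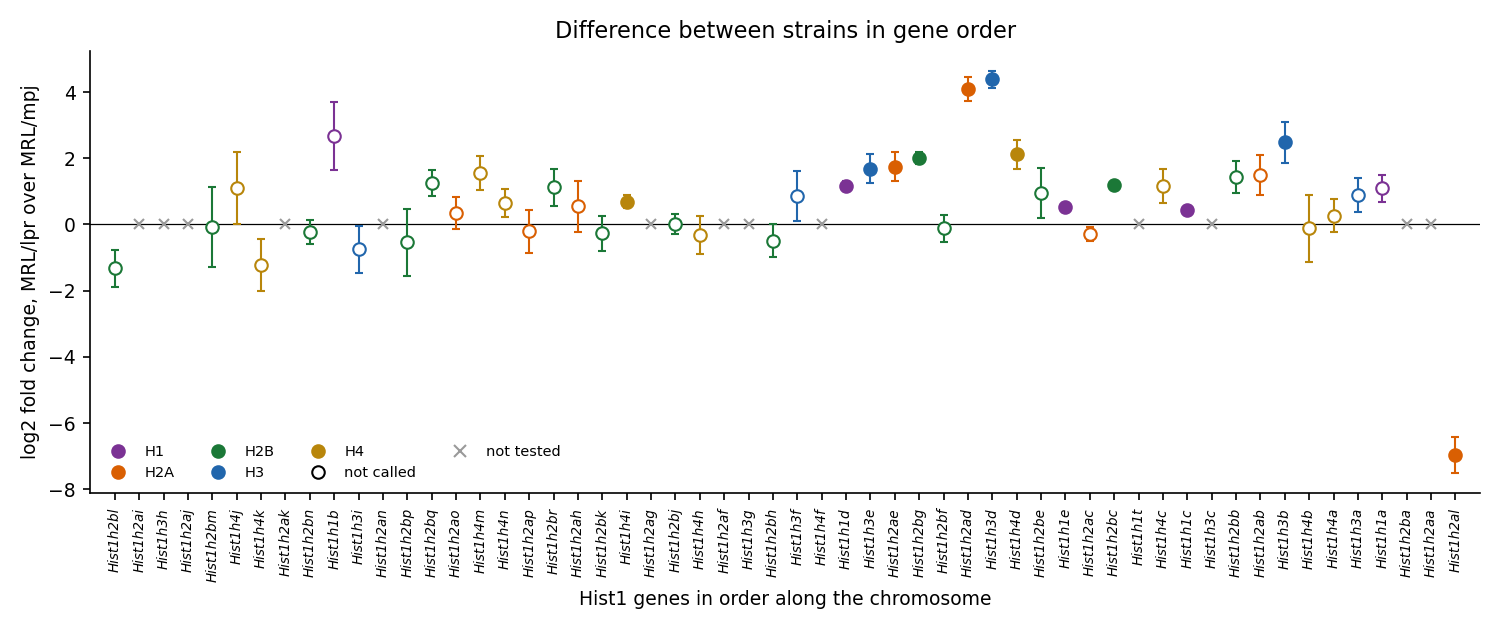
Log2 fold change (MRL/lpr over MRL/mpj) of the 56 Hist1 genes in chromosome order, coloured by class, with error bars for the SE, filled points for called genes and open points for genes that were not called. Grey crosses on the zero line only mark genes that were not tested; the filled points from Hist1h1d to Hist1h4d stand side by side, and Hist1h2al at -6.97 is outside the main cluster.

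Genes that share a start region did not always move together. The annotation holds 15 histone pairs that start back to back, and in 9 of them both genes were tested. Both genes were called in 1 pair, Hist1h2ae and Hist1h2bg, which are 175 bases apart. In this pair the ratio of Hist1h2bg to Hist1h2ae counts was 26.8, 22.2 and 24.4 in MRL/lpr and 24.3, 22.7 and 14.3 in MRL/mpj, with overlapping groups.

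In 2 pairs only 1 gene was called. Hist1h2bf and Hist1h2ad are 184 bases apart, and while Hist1h2ad was higher, Hist1h2bf had 37, 62 and 43 counts in MRL/lpr and 51, 78 and 44 in MRL/mpj (log2 fold change -0.12 ± 0.41, edgeR adjusted p = 0.887). The ratio of Hist1h2ad to Hist1h2bf was 5, 3.77 and 5 against 0.196, 0.128 and 0.5. By counts, the more abundant gene of the pair was Hist1h2bf in the controls and Hist1h2ad in MRL/lpr. Hist1h2ad shares 63.6% of its windows with other genes and Hist1h2bf 46.4%, and how such reads were assigned is not given. For Hist1h2bc over Hist1h2ac, 250 bases apart, the ratio was 17.7, 16.8 and 20.5 against 6.84, 6.36 and 6.23. These ratios lay apart in the strains, which with 3 against 3 libraries cannot give an exact permutation p below 0.1. The stretch between Hist1h2bf and Hist1h2ad shown above holds 4 CCAAT boxes and no octamer, whereas those of the other 2 pairs each hold 1 octamer. TATAAA is not in this stretch either. The 250-base window before the Hist1h2bf start runs on into the annotated Hist1h2ad and holds a match there. On the Hist1h2bf strand it reads TTTATA, so it is TATAAA on the strand of Hist1h2ad.

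The factors that make histone mRNA were considered as the other genes of the pathway. Of 16 genes for transcription and 3′ processing of histone mRNA, 1, Ncbp2, was lower in edgeR at an adjusted p under 0.05. None was higher, whereas 11.1% of all genes tested were higher and 9.06% lower. The median log2 fold change of the 16 genes was -0.04. Ncbp2, a subunit of the nuclear cap-binding complex, had 922, 884 and 666 counts in MRL/lpr against 1311, 1359 and 1330 (log2 fold change -0.53 ± 0.11, edgeR adjusted p = 0.00814). Slbp had 1941, 2140 and 1521 counts against 1721, 1631 and 1706 (log2 fold change 0.32 ± 0.10, edgeR adjusted p = 0.0511).

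Npat, the coactivator of histone gene transcription, had a log2 fold change of -0.29 ± 0.11 (edgeR adjusted p = 0.0896), and Casp8ap2, which encodes the processing factor FLASH, one of -0.20 ± 0.10 (edgeR adjusted p = 0.204). Neither was called. DESeq2 also called no gene of this list higher, and 1 was called higher with a minimum count of 40 or with counts divided by 4, and 2 without MRL/lpr replicate 3.

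Histone chaperones carry histones to DNA. Of 18 genes, 5 were higher and none lower, against 11.1% and 9.06% of all genes, with a median log2 fold change of 0.12. Asf1b, the H3-H4 chaperone linked to proliferation, had 343, 281 and 273 counts against 164, 119 and 108, with groups apart (log2 fold change 1.37 ± 0.23, edgeR adjusted p = 0.00228). Chaf1a, the large subunit of the chromatin assembly factor of replicating DNA, rose by a log2 fold change of 0.72, and Ubn1, Daxx and Hirip3 by 0.50, 0.47 and 0.46. The count of 5 fell to 2 with scaling by library totals alone, to 1 without MRL/mpj replicate 2, to 2 without MRL/lpr replicate 2 or MRL/mpj replicate 1 or 3, and to 3 without MRL/lpr replicate 3.

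Replacement variants are for the most part also made outside S phase and have polyadenylated mRNAs, though this need not hold for every gene listed. Of their 11 genes, 4 were higher and none lower (median log2 fold change 0.13), against 11.1% and 9.06% of all genes. H1fx had 61, 79 and 95 counts against 11, 23 and 24 (log2 fold change 2.2 ± 0.46, edgeR adjusted p = 0.00839), and H2afx, the variant phosphorylated at DNA breaks, 817, 739 and 781 against 408, 444 and 463 (log2 fold change 1.01 ± 0.13, edgeR adjusted p = 0.000502). Both lay apart between strains. H3f3b was higher by a log2 fold change of 0.79 and Cenpa, the centromeric H3, by 0.73, whereas H3f3a at 0.09, H2afz at 0.19 and H1f0 at 0.13 were not called. H1f0, the linker variant of resting cells, had 29.5 ± 0.555 FPKM in MRL/lpr and 29.3 ± 1.55 in MRL/mpj.

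Genes of DNA replication and mitosis were set beside the histone genes because the latter are expressed in S phase. Of 30 S phase genes 15 were higher and none lower, against 11.1% and 9.06% of all genes, with a median log2 fold change of 0.39. The number called was 9 without MRL/mpj replicate 2 or without MRL/mpj replicate 3. Rrm2, a subunit of ribonucleotide reductase, had 505, 645 and 462 counts against 197, 172 and 210 (log2 fold change 1.65 ± 0.17, edgeR adjusted p = 0.00014). Tk1 (thymidine kinase) was higher by 1.76 on the log2 scale, and Mcm10 and Cdc6, which act at replication origins, by 1.47 and 1.42. Pcna, the sliding clamp of DNA polymerase, was not called at 0.16 (edgeR adjusted p = 0.29).

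All 10 mitotic genes were higher, against 11.1% of all genes, with a median log2 fold change of 1.78. Mki67, the Ki-67 antigen of cycling cells, had 4134, 4299 and 3642 counts in MRL/lpr against 1000, 1025 and 1021 (log2 fold change 2.16 ± 0.08, edgeR adjusted p = 3.21e-07). Top2a had 2568, 2595 and 2428 counts against 647, 637 and 553 (log2 fold change 2.22 ± 0.10, edgeR adjusted p = 1.14e-06), and Birc5 and Cenpf were higher by 2.07 and 1.86 on the log2 scale. In all of these genes named with counts the strains did not overlap.

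**Figure D4:**
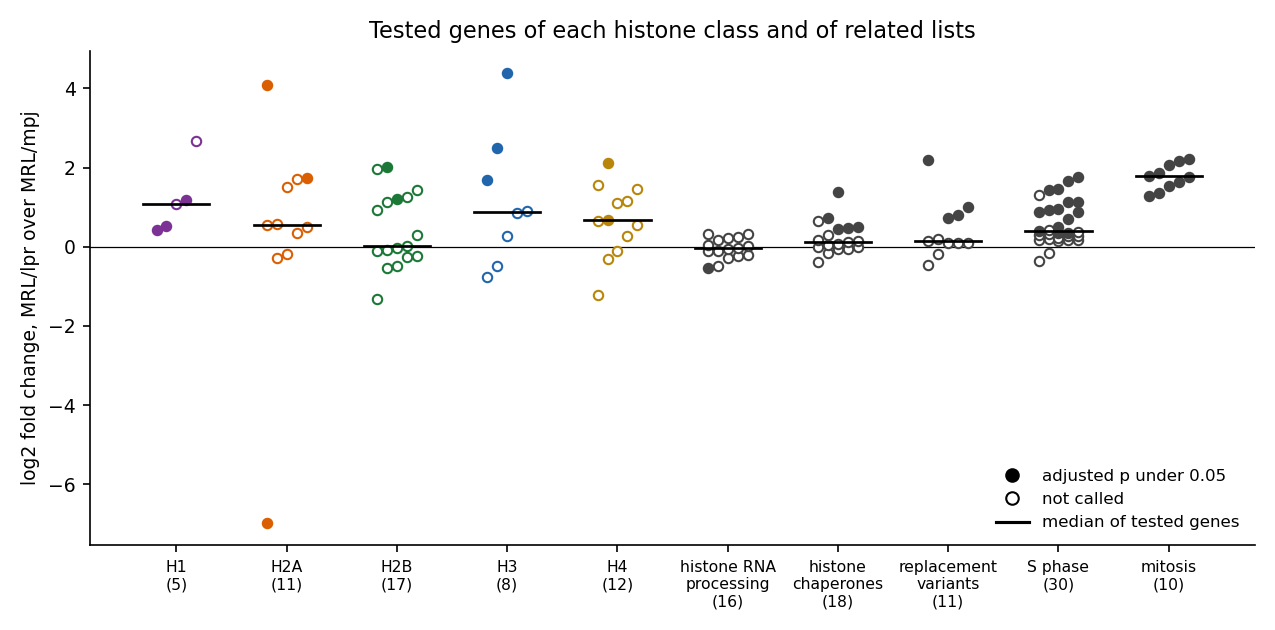
Log2 fold change (MRL/lpr over MRL/mpj) in each histone class and in the 5 related gene lists, tested genes only, with the number of genes under each name, filled points for an adjusted p under 0.05 and bars for medians. The mitotic genes lie above 1 as a group, whereas the histone classes spread on both sides of 0 within H2A, H2B, H3 and H4.

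Markers of other cells also differed between the strains. The calls below stand beside 11.1% of all genes tested higher and 9.06% lower. The summed CPM of 6 B and plasma cell genes was 23.8 to 27.8 in MRL/lpr and 9.57 to 11.3 in MRL/mpj, with 2 of 5 tested genes higher. Jchain had 647, 765 and 696 counts against 74, 72 and 42, and Mzb1 25, 54 and 48 against 0 in every control library. Most of the difference in the sum was in Jchain, with 15.6 CPM on average in MRL/lpr and 1.23 in MRL/mpj. Cd79b went the other way, with 6.63 CPM against 8.18 (log2 fold change -0.30), and was not called. The 5 T cell genes summed to 8.29 to 12.9 CPM against 1.60 to 2.33, with 4 of 5 higher. The 7 genes of neutrophils and their precursors summed to 543 to 628 against 426 to 486, with 2 of 7 higher, and the 6 erythroid genes to 685 to 1130 against 610 to 674, with 1 of 5 tested higher. The 9 genes of other brain cells (neurons, glia, endothelium and choroid plexus) summed to 756 to 875 against 1430 to 1540, with 3 of 9 lower. Most of this difference was in Ttr, a choroid plexus gene with 302 CPM on average in MRL/lpr and 942 in MRL/mpj, and without it the sums overlapped at 461 to 572 and 527 to 559. The 10 microglia genes summed to 21600 to 24400 against 25000 to 25800, with 2 of 10 lower, and to 20900 to 24100 against 24500 to 25300 without Cx3cr1. The part of these other cells, some of which divide, in the histone and cell cycle differences was not tested.

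RNAs without a poly(A) tail were looked at because the sources differ on library type, which a comparison between strains cannot tell. Of 7 such genes 4 were tested and none was called higher or lower by edgeR at an adjusted p under 0.05. Among all genes tested, 11.1% were higher and 9.06% lower. Rn7sk had 764, 1034 and 8434 counts in MRL/lpr and 1053, 926 and 734 in MRL/mpj, and Rmrp 12, 23 and 129 against 41, 45 and 27. MRL/lpr replicate 3, with the high values of these RNAs, had the lowest summed histone level of its strain at 595 CPM against 633 and 630. Without that library 11 histone genes were higher and 1 lower.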

How the data were processed

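Brain microglia of MRL/lpr and MRL/mpj mice were profiled by RNA-seq with paired reads of 150 bases, 3 libraries per strain. The submitters' processing notes name cutadapt 1.9.3, HISAT2 2.0.4, Cuffdiff 2.2.1, Cufflinks and GRCm38, and the methods name DESeq2; the counting tool and annotation are not given in the sources used here. Raw gene counts, as whole numbers, were deposited without scaling. They also deposited FPKM values per library, computed from counts, gene length and depth. With GENCODE M21 exonic lengths, counts and FPKM agreed within 10% for 99.4% to 99.5% of the genes checked. In every library more genes had a count of 4 (1138 to 1288) than of 3 (320 to 415) or 5 (211 to 261), so a count may not be 1 read and no counting intervals are given.

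GENCODE M21 matched 55141 of the 55401 identifiers. Counts were filtered with filterByExpr (minimum count 10, minimum total 15), scaled by TMM and tested with edgeR 4.0.16 (R 4.3.3) by a robust quasi-likelihood fit of strain, with Benjamini-Hochberg adjustment over all 19554 genes. The steps were tested on simulated data. The SE is the log2 fold change divided by the square root of F. The common biological coefficient of variation was 0.26. CPM are TMM-scaled, and group overlap was read on them. DESeq2 1.42.0 and other scalings, filters and left-out libraries were alternatives.

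Genes were named by rule: the 10 with the highest mean FPKM, all called genes, genes at 0 in 1 library and at least 40 counts in another, the H1 and testis genes, and in each related list up to 4 called genes with the largest change plus chosen regulators. Further genes (Hist3h2a, Hist1h2ac, Hist1h2be, Hist1h2bf, Hist1h2bl, Hist1h4m and Hist2h4) were named after their values were seen. The members and lists were chosen with earlier results of these data known. The labels give no pairing by replicate number. Deviations of same-numbered libraries from their strain means had correlations of -0.06, -0.034 and -0.077, and a shared litter or batch was not tested.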

Additional observations from a re-analysis of the deposited data

How the results depend on the processing

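The count of 12 higher and 1 lower histone genes was 15 and 1 in DESeq2, 10 and 1 with library totals alone, 9 to 11 and 1 to 2 when 1 library was left out (2 lower without MRL/mpj replicate 3), and 11 to 13 higher under the other filters, scalings and the fit without robust estimation. With the replicate number as a block it was 9 and 1, and the labels give no pairing. Of the 13 called genes, 8 kept their call under every alternative, whereas Hist1h4i lost it in 8, Hist1h2ae in 6, Hist1h1e in 5 and Hist1h3e and Hist1h3b in 3 each. The adjusted p over the alternatives ran from 0.0325 to 0.138 for Hist1h4i, from 0.0119 to 0.0826 for Hist1h2ae and from 0.015 to 0.0772 for Hist1h1e. Library totals alone moved the median log2 fold change of all genes from -0.01 to -0.13.

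Summed levels had other log2 ratios with library totals alone (all members 0.50, H1 0.33, H2B 0.92), without the most abundant member (all 0.89, H1 0.85, H2A -0.39, H2B 0.91, H3 0.47) and in FPKM (all 0.44, H1 0.33, H2A -0.75, H2B 0.83, H3 1.28, H4 0.47). Leaving out 1 library gave 0.60 to 0.65 for all members and -0.17 to -0.01 for H2A. The H2A ratio turned to 0.38 without Hist1h2al, an alternative added after seeing the data. Genes for histone RNA processing that were higher numbered 1 with a minimum count of 40 and 1 with counts divided by 4, and 0 to 2 when 1 library was left out, and 3 were lower with library totals alone. Higher chaperone genes numbered 2 with library totals alone, 3 without robust estimation and 1 to 4 when 1 library was left out, and higher S phase genes 9 to 16. The difference in Hist1h2bk turned to 0.08 when MRL/lpr replicate 1 was left out and to 0.20 when MRL/mpj replicate 1 was left out (-0.60 to 0.20 over the left-out libraries), and that in Hist1h2bj to -0.000357 in DESeq2, -0.12 with library totals alone and -0.20 to 0.21 over the left-out libraries, so neither has a firm direction. The causes of these changes were not tested. Of the 35 genes with a mean under 1 FPKM, 16 had too few counts to be tested, 16 were not called and 3 were called higher, so depth limits what can be said of the rarer genes.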
